A study of Mus musculus with 12 samples.

Results

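The enzymes that write, remove and read DNA methylation and histone marks were examined as 1 group of 44 genes in the mouse hippocampus. The genes were taken from a list by symbol: DNA methyltransferases, TET dioxygenases, methyl-CpG-binding proteins, histone deacetylases, sirtuins, histone acetyltransferases, histone methyltransferases and histone demethylases. All 44 were found among 35754 genes of the count table, and all 44 were among the 16153 genes that passed a filter on low counts and were tested. RNA had been sequenced from 12 male C57BL/6 mice of 8 weeks, 3 in each of 4 groups. The F0_Ctl mice were normal and the F0_Dep mice had been made depressive by stress. The F1_Ctl mice were male offspring of normal males, and the F1_Dep mice were male offspring of males with stress-induced depression, so no F1 mouse is described as stressed itself. How the stress was given is not stated in the sources used here, nor is which F1 mice shared a father or a litter. P-values therefore measure the spread between these mice only.

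DNA methyltransferases add a methyl group to cytosine, mostly where it is followed by guanine (CpG). TET dioxygenases oxidise that group, and most but not all proteins of the methyl-CpG-binding family attach to it. Histone acetyltransferases and deacetylases add and remove acetyl groups on histone tails, acetylation being a feature of active promoters and enhancers. Methylation of lysine 4 of histone H3 (H3K4) marks active elements, whereas methylation of lysine 9 (H3K9) and lysine 27 (H3K27) is linked to silencing. In the hippocampus several of these enzymes, among them CREB-binding protein, Hdac2 and Dnmt3a, are known for roles in memory.

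Library totals ran from 18277208 to 23083678 counts. At this depth 43 of the 44 genes had at least 100 counts in every library, and the exception, Dnmt3b, had 15 in its lowest. All 8 markers of hippocampal pyramidal neurons and all 11 of dentate granule cells were present and above 0 in each library. F1_Dep 1 stood apart in markers of the striatum, a neighbouring brain region, with a log2 level 2.78 above the 12-library mean, where the 11 others lay between -0.83 and 0.47. Choroid plexus markers were above that mean in F0_Ctl 3, F1_Ctl 2, F1_Ctl 3 and the 3 F1_Dep libraries, at up to 3.93. Mitochondrial genes took 5.09% to 5.32% of counts in F0_Dep and 6.70% to 10.9% in the other libraries. The F1_Ctl sample labels alone carry sequencing lane names, so sequencing and group cannot be told apart for F1_Ctl. In bulk tissue, fewer cells of a type and less RNA per cell cannot be told apart either.

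Levels were compared between genes in FPKM, which scales fragments by transcript length and library size. FPKM values were used from the 9 F0_Ctl, F0_Dep and F1_Dep mice. Sirt2, an NAD-dependent deacetylase abundant in myelin-forming cells, had the highest mean of the 44, at 66.2 FPKM, and stood above the next gene in all 9 libraries. Dnmt3b, a de novo DNA methyltransferase used mainly in early development, had the lowest, at 0.222 FPKM. The order between these ends was mostly loose. Ehmt2 (55.4 FPKM), the H3K9 methyltransferase also called G9a, stood above Hdac11 (53.5 FPKM) in only 6 of 9 libraries, and Mbd3 (46.4 FPKM) above Hdac2 (43.6 FPKM) in only 5 of 9. The 12 genes from Kmt2c at 15.9 FPKM down to Setdb1 at 9.71 FPKM included neighbours that changed places between libraries.

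**Figure D1:**
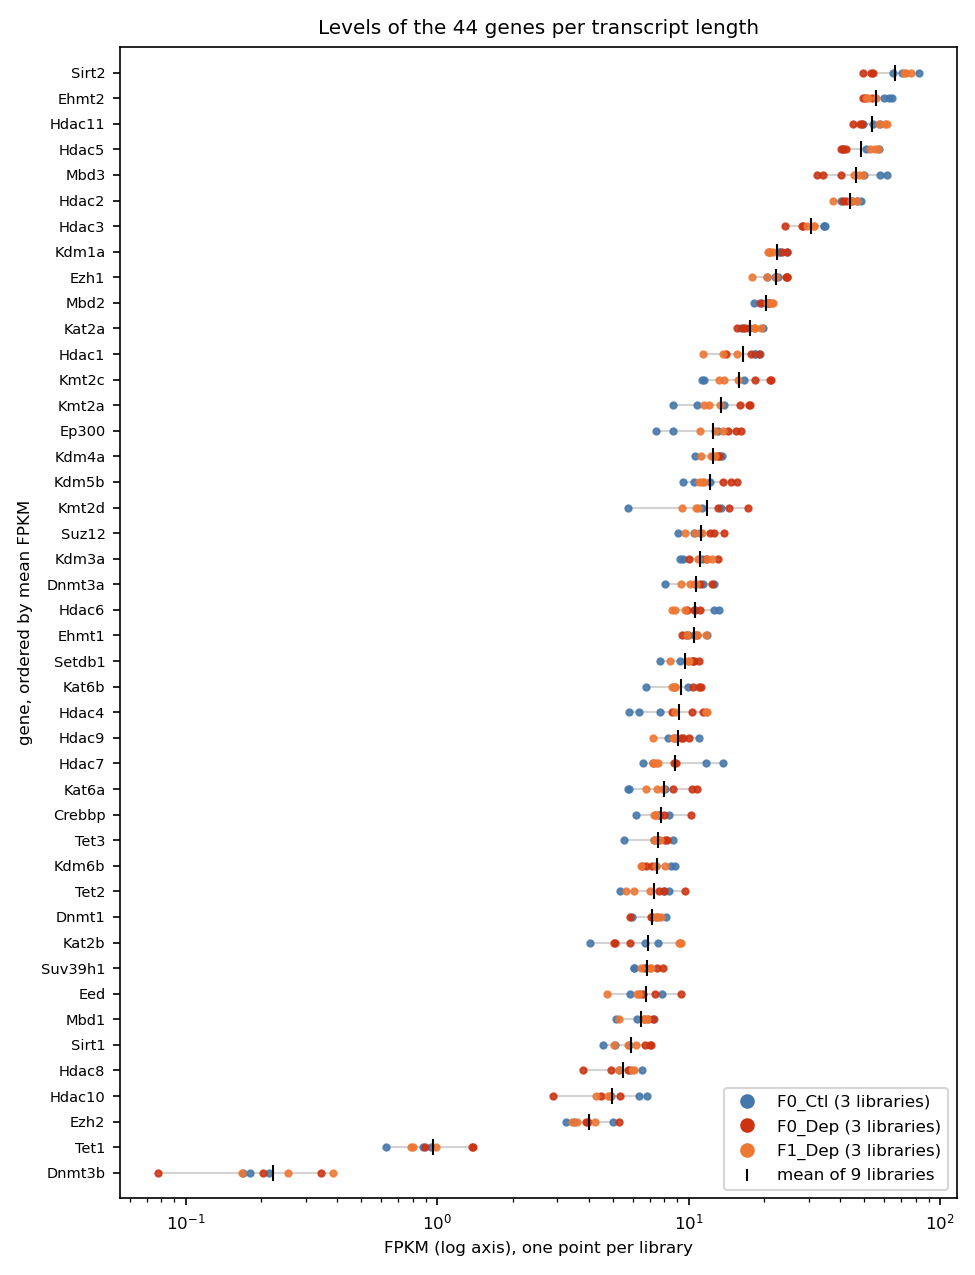
Mean and single-library levels of the 44 genes in FPKM on a log axis, ordered by the mean of 9 libraries (3 each of F0_Ctl, F0_Dep and F1_Dep). Points are libraries, black ticks are means and grey lines span the lowest to the highest library. Sirt2 at 66.2 and Dnmt3b at 0.222 FPKM are the ends of the order, and Tet1 and Dnmt3b stand apart below the rest.

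Among the DNA methyltransferases, Dnmt3a, the main de novo enzyme of neurons, had 10.7 FPKM and Dnmt1, the maintenance enzyme, 7.15 FPKM. The ratio of Dnmt3a to Dnmt1 was 1.50 ± 0.18 (SD, n = 9 libraries), between 1.26 and 1.80. Of the TET dioxygenases, Tet3 (7.53 FPKM) and Tet2 (7.30 FPKM) stood close together and Tet1 at 0.965 FPKM, with a Tet3 to Tet1 ratio of 8.12 ± 1.45. The methyl-CpG-binding family ran from Mbd3 (46.4 FPKM), a subunit of the NuRD deacetylase complex, through Mbd2 (20.3 FPKM) to Mbd1 (6.47 FPKM).

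Class I histone deacetylases, the nuclear enzymes of the corepressor complexes, ran from Hdac2 at 43.6 FPKM and Hdac3 at 30.8 FPKM to Hdac1 at 16.4 FPKM and Hdac8 at 5.49 FPKM. Hdac2 exceeded its close paralogue Hdac1 2.72 ± 0.43 times (SD, n = 9). Class IIa deacetylases, which shuttle between nucleus and cytoplasm in response to calcium signals, were led by Hdac5 at 48.5 FPKM, with Hdac4 at 9.18, Hdac9 at 9.08 and Hdac7 at 8.79 FPKM. Class IIb and IV comprised Hdac6, the cytoplasmic tubulin deacetylase, at 10.6 FPKM, Hdac10 at 4.97 FPKM and Hdac11 at 53.5 FPKM. The sirtuin Sirt1 had 5.92 FPKM, and the Sirt2 to Sirt1 ratio was 11.7 ± 3.65 (SD, n = 9).

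Among the acetyltransferases Kat2a, a catalytic subunit of the SAGA complex, led with 17.6 FPKM. Ep300 (p300) followed at 12.5 FPKM, Kat6b at 9.36, Kat6a at 7.95, Crebbp (CREB-binding protein) at 7.79 and Kat2b at 6.88 FPKM. Polycomb repressive complex 2 methylates H3K27, and its catalytic subunit Ezh1, at 22.2 FPKM, exceeded the alternative subunit Ezh2, at 4.02 FPKM, 5.62 ± 0.86 times (SD, n = 9). Its other core subunits Suz12 and Eed had 11.2 and 6.74 FPKM. The H3K9 methyltransferases beside Ehmt2 were Ehmt1 at 10.5, Setdb1 at 9.71 and Suv39h1 at 6.84 FPKM. The H3K4 methyltransferases Kmt2c, Kmt2a and Kmt2d had 15.9, 13.5 and 11.8 FPKM. Here too the counts gave another order. In F0_Ctl, Kmt2c (14967 bases) had a mean of 107 CPM and Kmt2a (16470 bases) 209 CPM. Histone demethylases ran from Kdm1a (LSD1) at 22.6 FPKM through Kdm4a at 12.5, Kdm5b at 12.2 and Kdm3a at 11.1 to Kdm6b at 7.46 FPKM.

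In stressed mice against normal mice, 3 of the 44 genes rose and none fell: the H3K4 methyltransferase Kmt2c, the acetyltransferase Ep300 and the class IIa deacetylase Hdac4. These calls are at an adjusted p under 0.05 in edgeR's quasi-likelihood test with Benjamini-Hochberg adjustment over all 16153 genes, of which 0.501% were called and 0.347% were called as higher. At an unadjusted p under 0.05 the test gave 13 of 44, of which 11 were higher and 2 lower, against 19.7% of all genes (10.3% higher and 9.39% lower). By sign alone 30 were higher and 14 lower in F0_Dep, with a median log2 fold change of 0.07 beside -0.03 over all genes, 45.4% of which were higher. The split was 25 to 19 without TMM scaling and 24 to 18 in FPKM, where 42 of the 44 were tested. With the trend of transcript length removed, as described below, it was 22 to 22, with a median of 0.00.

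Kmt2c (chr5:25271798-25498783, GRCm38, minus strand) encodes a large enzyme that places single methyl groups on H3K4, chiefly at enhancers. It had 97.9, 131 and 92.8 CPM (counts scaled to library size, with TMM scaling between libraries) in F0_Ctl and 162, 193 and 198 CPM in F0_Dep. Every stressed mouse lay above every normal mouse, with a log2 fold change of 0.78 ± 0.14 (SE) with an adjusted p = 0.0445 in edgeR's test.

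Ep300 (chr15:81585351-81652077, plus strand) encodes p300, a coactivator that acetylates histones at enhancers and promoters. Its levels were 85.3, 95.9 and 72.5 CPM in F0_Ctl and 126, 132 and 130 CPM in F0_Dep. The stressed mice were close together and all above the normal ones, with a log2 fold change of 0.61 ± 0.12 (SE) with an adjusted p = 0.0474 in edgeR's test.

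Hdac4 (chr1:91928779-92195699, minus strand) encodes a class IIa deacetylase that leaves the nucleus when calcium signalling is active. It had 42.2, 44.5 and 42.6 CPM in F0_Ctl and 51.8, 68.3 and 63.9 CPM in F0_Dep. The groups did not overlap, and F0_Dep 1 was the lowest of the stressed mice. The log2 fold change was 0.51 ± 0.10 (SE) with an adjusted p = 0.0482 in edgeR's test. An antisense gene, Gm26720, covers 22.4% of the exonic bases of Hdac4 in the GENCODE M21 annotation. It was listed above 0 FPKM in 1 of 9 libraries, at 0.0363 FPKM.

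Markers of other cell types also differed in level between these groups. Endothelial and pericyte markers were lower in F0_Dep in 7 of 8, with 1 called and a median log2 fold change of -0.46, their summed level being 268 to 291 CPM in F0_Ctl and 213 to 231 CPM in F0_Dep. General neuron markers were higher in 8 of 9, with 0 called, at sums of 6391 to 7221 against 7360 to 8103 CPM. Microglial markers were lower in 8 of 9, at 304 to 473 against 296 to 321 CPM, and choroid plexus markers in 11 of 12, at 102 to 5140 against 144 to 376 CPM, with 0 called in each. By library, the choroid plexus log2 level was -3.38, -3.97 and 3.01 in F0_Ctl and -1.36, -0.59 and -3.22 in F0_Dep, relative to the 12-library mean. The lower choroid plexus level in F0_Dep thus rested on F0_Ctl 3. The microglial log2 level was 0.36, -0.26 and -0.23 in F0_Ctl and -0.18, -0.26 and -0.37 in F0_Dep, so F0_Ctl 1 alone stood apart. Blood markers were lower in 5 of 5, with 0 called, at 49.7 to 197 against 35.3 to 46.9 CPM. Striatal markers were lower in 10 of 11, with 0 called and a median of -0.59, at 201 to 282 against 199 to 219 CPM. Their log2 level was -0.59, -0.59 and 0.31 in F0_Ctl and -0.69, -0.72 and -0.83 in F0_Dep. Markers of immature neurons and dividing cells were lower in 6 of 7, with 0 called, at 75.1 to 103 against 67.5 to 90.2 CPM. The part of these markers in the values of Kmt2c, Ep300 and Hdac4 was not tested.

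All 3 calls were lost, with directions kept, when any 1 of F0_Ctl 1, F0_Ctl 3, F0_Dep 2 or F0_Dep 3 was left out, where 0 of 44 genes passed. Without F0_Dep 1, Hdac4 alone passed, and without F0_Ctl 2 the count was 5, Kat6a and Kmt2a being added, where 2.26% of all genes were called.

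The 250 bases before the start site of Kmt2c and of Hdac4 are shown as examples of genes that rose and have a start rich in CpG, the sequence that the DNA methyltransferases act on. The same stretch of Ep300, with 25 CpG, lies in an annotated exon and is not printed. They are from RefSeq (GRCm38.p6), read 5′ to 3′ on the gene's own (minus) strand, with each CpG in capitals. In GENCODE M21 the Hdac4 stretch lies inside the annotated Hdac4 gene and outside annotated exons.
Kmt2c, chr5:25498784-25499033: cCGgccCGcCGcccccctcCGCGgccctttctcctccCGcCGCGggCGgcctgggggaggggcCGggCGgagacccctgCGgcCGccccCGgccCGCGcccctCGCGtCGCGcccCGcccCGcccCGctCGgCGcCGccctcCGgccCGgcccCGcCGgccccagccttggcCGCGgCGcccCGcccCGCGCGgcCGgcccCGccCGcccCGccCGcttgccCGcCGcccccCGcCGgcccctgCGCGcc
Hdac4, chr1:92180342-92180591: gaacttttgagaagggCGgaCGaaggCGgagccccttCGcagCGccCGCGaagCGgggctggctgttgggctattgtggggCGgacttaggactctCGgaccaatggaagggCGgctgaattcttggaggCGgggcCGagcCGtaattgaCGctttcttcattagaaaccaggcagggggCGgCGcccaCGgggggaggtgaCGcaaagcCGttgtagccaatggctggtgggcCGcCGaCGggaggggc
The Kmt2c stretch holds 48 CpG and the Hdac4 stretch 23. RefSeq start sites were matched for 37 of the 44 genes, at 51 promoters, whose median was 18 CpG in 250 bases against 6 over 32851 mouse promoters. Of the 51, 42 exceeded that overall median. The GC box GGGCGG, searched on both strands, lay in 34 of the 51 promoters and in 32.7% of all promoters, and both stretches shown hold it. The E-box CACGTG was found in 4 of the 51 and in 6.02% of all. The cAMP response element TGACGTCA was found in 0 of the 51 and in 1.55% of all. These matches are a description of the letters in the window, and no methylation was measured in these samples.

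The other H3K4 methyltransferases stood higher as well without passing. Kmt2a (MLL1), which trimethylates H3K4 at promoters, had 180, 256 and 191 CPM in F0_Ctl and 330, 319 and 346 CPM in F0_Dep. The groups did not overlap, and the log2 fold change was 0.67 ± 0.18 (SE) with an adjusted p = 0.0883 in edgeR's test. Kmt2d, the paralogue of Kmt2c, had 113, 235 and 207 CPM against 311, 242 and 260 CPM, with F0_Ctl 1 lowest by a wide margin. Its log2 fold change was 0.55.

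Of the 6 acetyltransferases, 5 stood higher (4 without TMM scaling) and 4 had an unadjusted p under 0.05. Kat6a (MOZ), which acetylates histone H3, had 64.4, 87.0 and 61.1 CPM in F0_Ctl and 93.2, 106 and 117 CPM in F0_Dep. The groups did not overlap, and the log2 fold change was 0.57 ± 0.14 (SE) with an adjusted p = 0.0659 in edgeR's test. Crebbp, the paralogue of Ep300, had 86.5 ± 7.89 against 107 ± 12.3 CPM (SD, n = 3), a log2 fold change of 0.31 ± 0.12 (SE) and an adjusted p = 0.190 in the same edgeR fit. Kat6b had a log2 fold change of 0.26 and Kat2a 0.02. Kat2b was at -0.23.

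Among the other Hdac genes Hdac9 alone had a value above 0, and none passed. All 4 class I enzymes were lower in F0_Dep, from -0.05 for Hdac1 to -0.31 for Hdac3, and none passed. Hdac2 had 109 ± 11.8 CPM in F0_Ctl and 92.8 ± 4.65 CPM in F0_Dep (SD, n = 3), with an unadjusted p = 0.0305 and an adjusted p = 0.208 in edgeR's test. Hdac3 had 22.8, 20.1 and 20.6 CPM against 18, 15.9 and 17.4 CPM, with no overlap. Hdac8 stood at -0.30. The class IIb and IV enzymes Hdac10, Hdac6 and Hdac11 were at -0.33, -0.12 and -0.10, none passing. In class IIa, Hdac5 was at -0.08, Hdac7 at -0.16 and Hdac9 at 0.02. Directions of the class I, IIb and IV enzymes were the same without TMM scaling, with RLE scaling, in DESeq2 and in FPKM, and with the length trend removed 1 class I enzyme was higher.

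Sirt2 had 134, 142 and 157 CPM in F0_Ctl and 124, 124 and 116 CPM in F0_Dep. The groups did not overlap, and the log2 fold change was -0.25 ± 0.10 (SE) with an adjusted p = 0.196 in edgeR's test. Of 9 myelin and oligodendrocyte markers found (of 10 listed, none at 0 in any library), 8 were also lower in F0_Dep and 0 were called, with a summed level of 2207 to 6237 CPM in F0_Ctl and 2903 to 3228 CPM in F0_Dep. Their part in the Sirt2 difference was not tested. Sirt1, which acts on histones and many transcription factors, was at 0.01.

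The enzymes of DNA methylation differed little in this contrast, and none passed. The 3 DNA methyltransferases and 3 TET enzymes had values above 0, although in FPKM the 2 methyltransferases tested were 1 higher and 1 lower. Dnmt3a had 90.8 ± 18.2 CPM in F0_Ctl and 107 ± 7.17 CPM in F0_Dep (SD, n = 3), the log2 fold change being 0.24. Dnmt1 stood at 0.09 and Dnmt3b, with 0.978 CPM in F0_Ctl and 1.02 CPM in F0_Dep, at 0.07. Tet1, Tet2 and Tet3 were at 0.24, 0.27 and 0.25, and Tet2 alone had groups that did not overlap, at 44, 50.6 and 53.4 against 62, 58 and 59 CPM. Mbd2 had 38.1 ± 1.21 against 44 ± 1.55 CPM, a log2 fold change of 0.21 ± 0.08 (SE) and an adjusted p = 0.181 in edgeR's test. Mbd1 was at 0.03 and Mbd3 at -0.23.

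Polycomb and H3K9 enzymes were near 0 with few exceptions, the signs of the smaller values turning with the scaling (Polycomb 3 higher of 4, but 2 without TMM scaling; H3K9 4 higher of 4, but 2 in FPKM). Ezh1 was at 0.20 and Suz12 at 0.07, Eed at 0.00 and Ezh2 at -0.13. Suv39h1, which trimethylates H3K9 in constitutive heterochromatin, had 18.4 ± 0.389 against 22.6 ± 2.43 CPM (SD, n = 3), a log2 fold change of 0.29 ± 0.11 (SE) and an adjusted p = 0.168 in edgeR's test. Setdb1, Ehmt1 and Ehmt2 were at 0.13, 0.07 and 0.05. Among the demethylases, Kdm5b, which removes methyl groups from H3K4, had 75.4 ± 7.88 against 94.7 ± 7.64 CPM, a log2 fold change of 0.33 ± 0.11 (SE) and an adjusted p = 0.131 in edgeR's test. Kdm4a was at 0.16, Kdm3a at 0.08, Kdm6b at 0.06 and Kdm1a at -0.08. Over all 44 genes, 14 had every F0_Dep mouse above every F0_Ctl mouse and 3 had every one below, beside 13.7% and 13.7% of all genes.

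**Figure D2:**
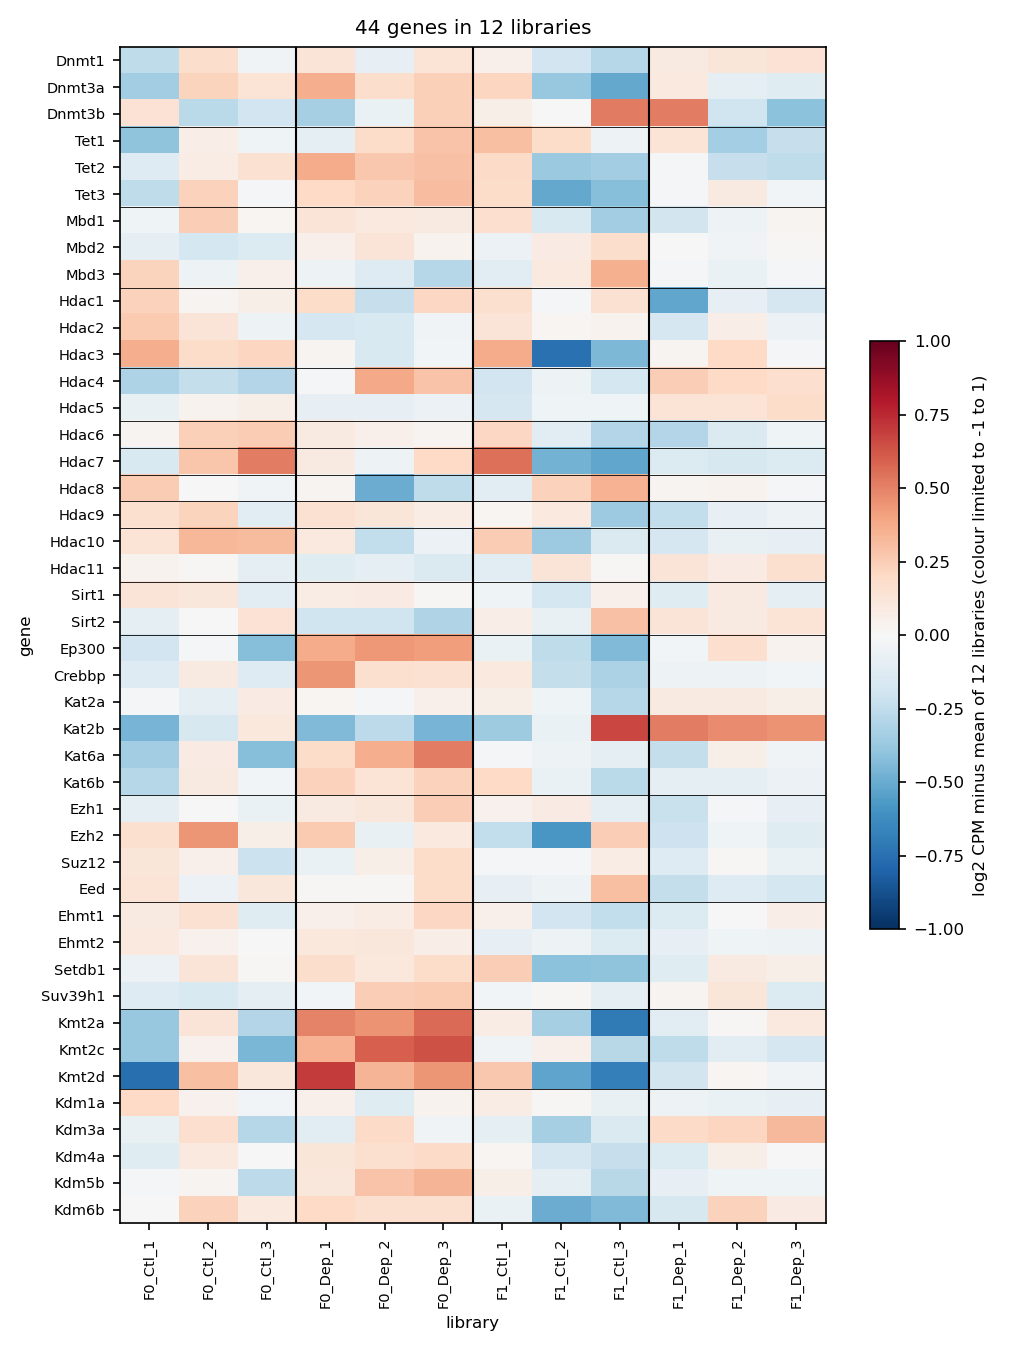
Level of the 44 genes (rows, by enzyme class) in the 12 libraries (columns, 3 per group), as log2 CPM minus the gene's mean over the 12, with the colour scale limited to -1 to 1. The Kmt2a, Kmt2c and Ep300 rows are highest in the 3 F0_Dep libraries, the Kat2b row is high in the 3 F1_Dep libraries and F1_Ctl 3, and F1_Ctl 1 differs from F1_Ctl 2 and F1_Ctl 3 in the rows of Hdac3, Hdac7, Setdb1 and Kmt2d.

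Differences between stressed and normal mice ran with transcript length, over all genes and over these 44. The median log2 fold change of all genes rose from -0.24 for the 971 genes under 1000 bases to 0.29 for the 940 genes of 8000 bases or more, 84.7% of which were higher in F0_Dep. All 12 members of 8000 bases or more were higher, with a median of 0.42. Kmt2c, at 14967 bases, Ep300, at 9566, and Hdac4, at 8100, are all in this range. Of the 32 shorter members, 18 were higher, with a median of 0.01. Over all genes under 8000 bases, 43.0% were higher, with a median of -0.05. The median level of the long genes was 0.17, 0.24 and 0.24 in the F0_Dep libraries and -0.23, 0.08 and -0.14 in F0_Ctl, as log2 values relative to the 12-library mean.

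With the length trend removed from each library, 0 of the 44 genes passed. The log2 fold change of Kmt2c was then 0.42 (adjusted p = 0.174 in edgeR's test), that of Ep300 0.35 (adjusted p = 0.195) and that of Hdac4 0.29 (adjusted p = 0.281). In that fit the smallest p of the 44 was that of Mbd2, a short transcript of 1953 bases, at a log2 fold change of 0.34 and an adjusted p = 0.117. Among the classes, the 3 H3K4 methyltransferases were still all higher, whereas the DNA methyltransferases and the TET enzymes were each 1 higher and 2 lower.

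**Figure D3:**
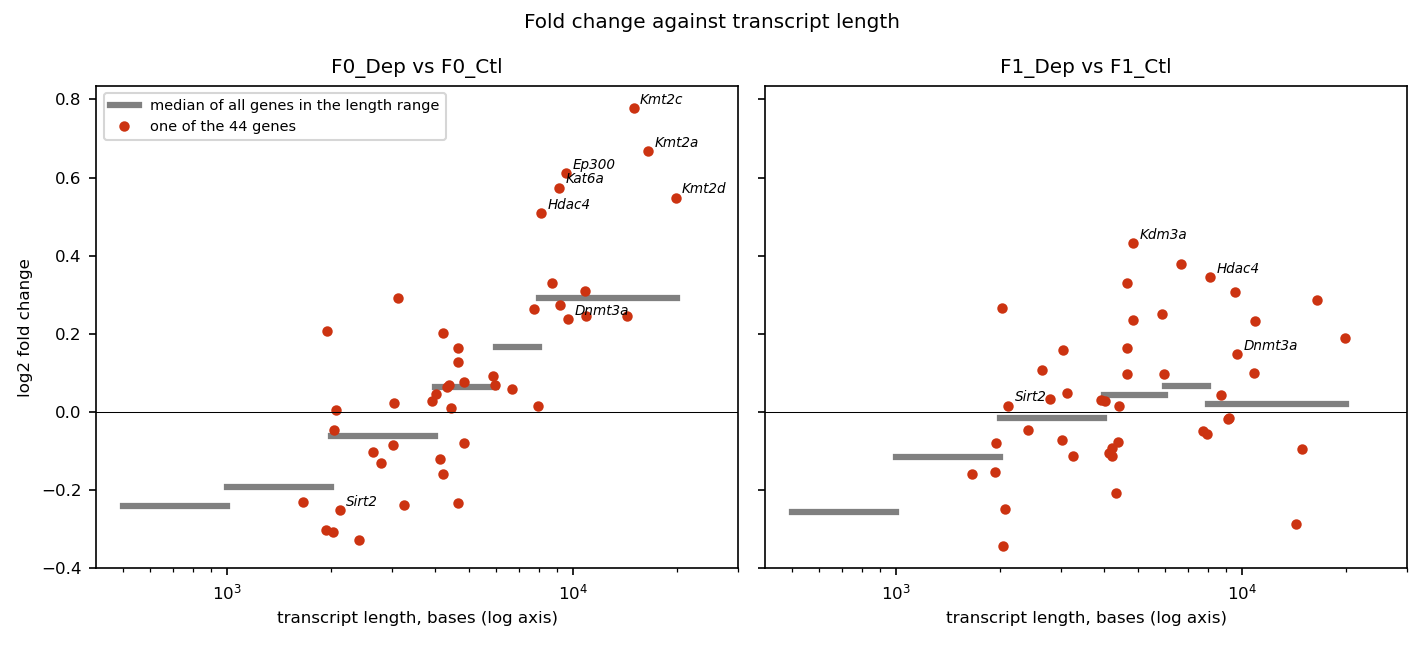
Log2 fold change of each of the 44 genes (points) against the length of its transcript in bases (log axis), for F0_Dep against F0_Ctl (left) and F1_Dep against F1_Ctl (right). Grey bars are medians of all genes in 6 length ranges, the first holding all genes under 1000 bases and the last all genes of 8000 or more. On the left the medians rise from -0.24 to 0.29 and the longest members lie at the top. On the right the medians run from -0.25 under 1000 bases to 0.07 at 6000 to 8000 bases, and the last is 0.02.

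The deposited FPKM values gave more calls in this contrast, among the 44 and among all genes. With limma on log2(FPKM + 1), 11 of the 42 members tested passed, beside 21.2% of all genes tested in that fit. Kmt2c, Kmt2a, Kdm5b, Kat6a, Ep300, Hdac4 and Sirt1 were higher, and Mbd3, Sirt2, Hdac3 and Ehmt2 were lower. Mbd3 had 61.3, 49.6 and 57.8 FPKM in F0_Ctl and 40.2, 34.3 and 32.4 FPKM in F0_Dep, a log2 difference of -0.64 (adjusted p = 0.00908 in limma), while its CPM values overlapped between the groups. Sirt2 stood at -0.46 in FPKM (adjusted p = 0.0129 in limma). Ehmt2 was lower in FPKM, at -0.28 (adjusted p = 0.0275 in limma), against 0.05 in CPM. The FPKM values carried the same run with length, the genes of 8000 bases or more having a median of 0.40.

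In sons of depressive males against sons of normal males, 0 of the 44 genes passed edgeR's quasi-likelihood test, in which 0.167% of all genes did. At an unadjusted p under 0.05 there were 6 of 44, beside 14.9% of all genes. DESeq2 called 3, namely Hdac4, Hdac5 and Kdm3a, where it called 3.69% of all genes, and voom with library weights called 7, where it called 12.4%. By sign 25 were higher and 19 lower in F1_Dep, with a median of 0.03, where 46.9% of all genes were higher. With the length trend removed, 21 were higher and 23 lower. Groups did not overlap for 5 higher and 2 lower genes, beside 8.72% and 10.3% of all genes.

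Kdm3a, which removes methyl groups from H3K9, had the smallest p. It had 46.3, 39.5 and 44.8 CPM in F1_Ctl and 56.6, 57.6 and 62.1 CPM in F1_Dep. Every F1_Dep mouse lay above every F1_Ctl mouse, and the log2 fold change was 0.43 ± 0.12 (SE) with an adjusted p = 0.139 in edgeR's test.

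Hdac4 had 45.8, 50.5 and 46.5 CPM in F1_Ctl and 62.2, 60.2 and 59.0 CPM in F1_Dep, again without overlap. The log2 fold change was 0.35 ± 0.10 (SE) with an adjusted p = 0.143 in edgeR's test, so this gene, which rose in F0_Dep, stood higher in F1_Dep without passing. Its paralogue Hdac5 had 141, 155 and 155 CPM against 175, 175 and 181 CPM, a log2 fold change of 0.24 ± 0.07 (SE) with an adjusted p = 0.173 in edgeR's test, and the groups did not overlap.

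Ep300 had 92.9, 81.7 and 71.8 CPM in F1_Ctl and 95.7, 109 and 100 CPM in F1_Dep, a log2 fold change of 0.31 ± 0.12 (SE) with an adjusted p = 0.248 in edgeR's test. Kdm6b, an H3K27 demethylase induced by neuronal activity, stood at 0.38 ± 0.13 (SE) with an adjusted p = 0.204 in the same edgeR fit. Hdac1 was lower, at 38.9 ± 2.73 CPM in F1_Ctl and 30.6 ± 4.75 CPM in F1_Dep (SD, n = 3), with F1_Dep 1 the lowest at 25.3. Its log2 fold change was -0.34 ± 0.14 (SE), with an adjusted p = 0.275 in edgeR's test. The 4 next by p were Dnmt1 at 0.25 ± 0.12 (SE), Eed at -0.25 ± 0.13, Kat2a at 0.16 ± 0.09 and Tet1 at -0.29 ± 0.17. Their adjusted p-values in edgeR were 0.353, 0.384, 0.441 and 0.478. Kmt2c was at -0.10.

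**Figure D4:**
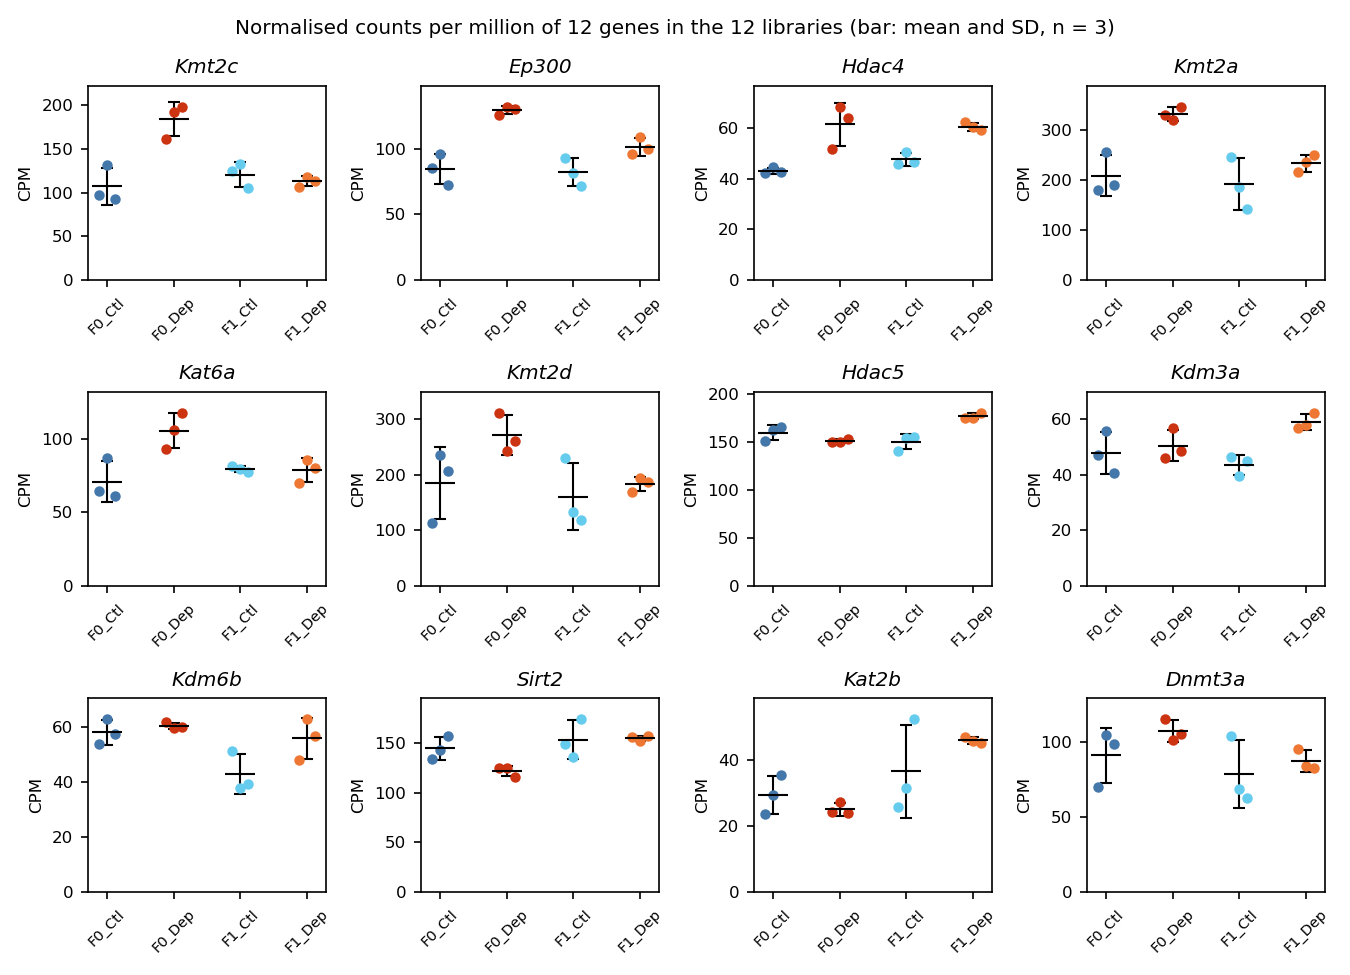
CPM of 12 of the genes in each library (points), with the mean and SD of the 3 mice of a group (black bars), each axis starting at 0. Kmt2c, Ep300 and Hdac4 are higher in every F0_Dep mouse than in every F0_Ctl mouse. Hdac4, Hdac5 and Kdm3a are higher in every F1_Dep mouse than in every F1_Ctl mouse.

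F1_Ctl 2 and F1_Ctl 3 stood below the 10 other libraries, F1_Ctl 1 among them, for several genes. Hdac3, the catalytic subunit of the NCoR corepressor complexes, had 10.5 and 13.0 CPM in these mice and between 15.9 and 22.9 CPM in the 10 others, the highest being F1_Ctl 1. Kdm6b had 38.0 and 39.5 CPM against 47.9 to 63.0 CPM, with 51.3 in F1_Ctl 1. Setdb1 had 45 CPM in each against 54.7 to 70.7 CPM, and Hdac7 28.9 and 28.0 CPM against 36.0 to 59.1 CPM, F1_Ctl 1 again being the highest for both. Without F1_Ctl 1, edgeR called 3 of the 44 genes in this comparison, all higher in F1_Dep, and 4.11% of all genes, so that the comparison then rested on F1_Ctl 2 and F1_Ctl 3 alone as controls. They were Hdac3 at a log2 fold change of 0.67 (adjusted p = 0.0286), Kdm6b at 0.53 (adjusted p = 0.0349) and Setdb1 at 0.42 (adjusted p = 0.0349). Dentate granule cell markers were also lower in F1_Dep, in 10 of 11 with 2 called, with summed levels of 764 to 1007 CPM in F1_Ctl and 205 to 514 CPM in F1_Dep. Striatal markers were higher in 11 of 11 with 0 called, their sums being 207 to 296 CPM in F1_Ctl and 286 to 1547 CPM in F1_Dep. The part of these regional markers in the values above was not tested.

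Whether the change differed between the generations was tested as an interaction, which 0 of the 44 genes passed in edgeR, beside 0.0681% of all genes. At an unadjusted p under 0.05 there were 5 of 44, beside 13.4% of all genes. DESeq2 called 2, Hdac5 and Kmt2c, and 3.03% of all genes, and voom called 2, Hdac3 and Kmt2c, and 3.29% of all genes. Kmt2c had the smallest p, the F1 change minus the F0 change being -0.87 ± 0.20 (SE) on the log2 scale, with an adjusted p = 0.109 in edgeR's test. Kat6a followed at -0.59 ± 0.19 (SE) with an adjusted p = 0.213, and Hdac5 at 0.32 ± 0.10 (SE) with an adjusted p = 0.218, both in edgeR. Leaving out F1_Ctl 3 gave 1 call, Kmt2c, with an adjusted p = 0.0457 in edgeR, where 1.4% of all genes were called. The interaction also ran with transcript length. Over the 940 genes of 8000 bases or more its median was -0.28, and 21.6% were above 0. Of the 12 members of that length, Kmt2c and Kat6a among them, 0 were above 0, with a median of -0.30. The changes of Ep300 and Hdac4 in the 2 generations were 0.61 and 0.31, and 0.51 and 0.35.

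**Figure D5:**
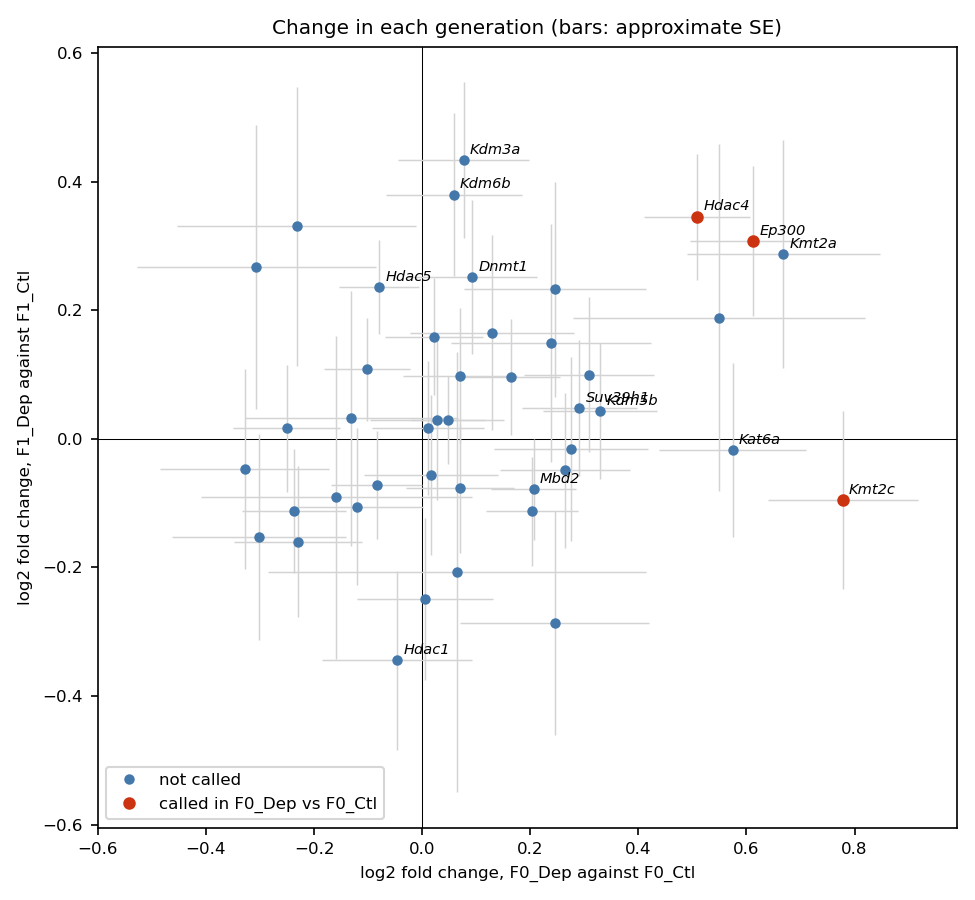
Log2 fold change of each of the 44 genes in F0_Dep against F0_Ctl (horizontal) and F1_Dep against F1_Ctl (vertical), with approximate standard errors as grey bars. The 3 genes called in the first comparison are red. Ep300 and Hdac4 lie above 0 on both axes, and Kmt2c, at 0.78 and -0.10, lies far to the right near 0 on the vertical axis.

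Sons of depressive males were also compared with the stressed generation itself, and Kmt2c was the 1 gene of 44 that passed, as lower, in edgeR's test, beside 2.88% of all genes (1.57% as lower). It had 107, 119 and 114 CPM in F1_Dep, all below the 162 to 198 CPM of F0_Dep, and the log2 fold change was -0.71 ± 0.14 (SE) with an adjusted p = 0.0320 in edgeR. The adjusted p rose to between 0.0597 and 0.157 when any 1 of these 6 libraries was left out, so the call rested on all of them. It was 0.0376 without TMM scaling and 0.0313 with RLE scaling. With the length trend removed it was 0.0876 and 0 of the 44 genes passed. By sign 12 were higher and 32 lower, with a median of -0.16 beside 0.01 over all genes, 50.8% of which were higher. At an unadjusted p under 0.05 there were 15 of 44, beside 22.3% of all genes. Groups did not overlap for 21 lower and 5 higher genes, beside 20.4% and 22.6% of all genes, and all 12 members of 8000 bases or more were lower. Over all genes of that length the median was -0.27. Dentate granule cell markers were lower in F1_Dep in 11 of 11, with 2 called and a median of -1.23, at sums of 699 to 978 CPM in F0_Dep and 205 to 514 CPM in F1_Dep. Striatal markers were higher in 11 of 11, with 2 called and a median of 2.23, at 199 to 219 against 286 to 1547 CPM. The part of these markers in the Kmt2c value was not tested.

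Kat2b, the acetyltransferase also called PCAF, stood next. It had 24.1, 27.3 and 23.8 CPM in F0_Dep and 46.9, 45.6 and 44.9 CPM in F1_Dep, with a log2 fold change of 0.87 ± 0.22 (SE) and an adjusted p = 0.0533 in edgeR's test. It was also high in F1_Ctl 3, at 52.3 CPM, and lower in F1_Ctl 1 and F1_Ctl 2, at 25.6 and 31.4 CPM. Choroid plexus markers were also higher in F1_Dep, in 12 of 12 with 0 called, with sums of 144 to 376 CPM in F0_Dep, 2895 to 4642 CPM in F1_Dep, 226 to 9250 CPM in F1_Ctl and 102 to 5140 CPM in F0_Ctl. Relative to the 12-library mean, their log2 level was 3.93 in F1_Ctl 3, which had the highest Kat2b level, and 1.78, 2.96 and 2.86 in F1_Dep. The choroid plexus level was -1.54 and 0.02 in F1_Ctl 1 and F1_Ctl 2, and -1.36, -0.59 and -3.22 in F0_Dep. In F0_Ctl it was -3.38, -3.97 and 3.01, beside Kat2b levels of 23.7, 29.4 and 35.2 CPM. Of the 12 choroid plexus markers, Clic6 and Cldn2 were at 0 in at least 1 library. Myelin markers were higher in 9 of 9, with 1 called and sums of 6042 to 7221 CPM in F1_Dep. On the same log2 scale myelin markers had -0.83, -0.10 and 0.50 in F0_Ctl and -0.61, -0.435 and -0.62 in F0_Dep. The myelin level was 0.00, -0.04 and 0.78 in F1_Ctl and 0.64, 0.41 and 0.40 in F1_Dep. Sirt2 had 156, 152 and 156 CPM in F1_Dep, all above F0_Dep, with a log2 fold change of 0.35 ± 0.10 (SE) and an adjusted p = 0.0718 in edgeR. The part of these markers in the Kat2b and Sirt2 values was not tested.

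Against normal F0 mice, F1_Dep gave 0 calls among the 44 genes and 0 among all genes (0%) in edgeR, with 7 of 44 at an unadjusted p under 0.05 (12.9% of all genes), 1 call, Hdac4, in DESeq2 (2.64% of all genes) and 0 in voom. Hdac4 was highest in rank, at 0.49 ± 0.10 (SE) with an adjusted p = 0.114 in edgeR. Kat2b was at 0.64 ± 0.22 (SE) with an adjusted p = 0.248, and Hdac6 at -0.33 ± 0.12 (SE) with an adjusted p = 0.279, both in edgeR. This comparison shares F0_Ctl with the first and F1_Dep with the second.

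The 2 control groups gave 0 calls among the 44 genes and 0 among all genes (0%) in edgeR, with 2 of 44 at an unadjusted p under 0.05 (5.93% of all genes) and 0 calls in DESeq2 and in voom. Kdm6b had 53.8, 63.0 and 57.3 CPM in F0_Ctl and 51.3, 38.0 and 39.5 CPM in F1_Ctl, a log2 fold change of -0.44 ± 0.13 (SE) with an adjusted p = 0.750 in edgeR's test. Mbd2 was at 0.20 ± 0.08 (SE) and Hdac10 at -0.33 ± 0.16 (SE), each with the same adjusted p = 0.750 in edgeR. Without F1_Ctl 1, edgeR called 2.42% of all genes and 4 of the 44, as lower in F1_Ctl: Hdac3 at -0.85, Hdac7 at -0.74, Kdm6b at -0.58 and Setdb1 at -0.43, with adjusted p-values of 0.0215, 0.0429, 0.0345 and 0.0386.

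Over the 4 groups together, 0 of the 44 genes passed edgeR's test of any difference, beside 0.39% of all genes. At an unadjusted p under 0.05 there were 13 of 44, beside 24.4% of all genes, and DESeq2 called 12 (14.8% of all genes) and voom 8 (9.84%). Kmt2c, Ep300 and Hdac4 came nearest, with adjusted p-values in edgeR of 0.0535, 0.0546 and 0.0546. Kmt2a (0.0792), Kat6a (0.0955), Kat2b (0.109), Kdm6b (0.110), Sirt2 (0.130), Tet2 (0.135) and Kdm5b (0.135) followed, these being adjusted p-values in the same edgeR test. Without F1_Ctl 1 the count was 15, beside 16% of all genes. It was 3 without F0_Ctl 2 (2.12% of all genes), 3 without F0_Ctl 3 (3.47%) and 4 without F1_Ctl 3 (3.22%).

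Other genes of chromatin modification were counted from a wider list of 96, of which 92 were found and 91 tested. In stressed against normal mice 1 of the 91 rose, where 0.501% of all genes were called. This was Setd1b, a further H3K4 methyltransferase, from a mean of 45.2 to 74.7 CPM. The log2 fold change was 0.72 ± 0.12 (SE) with an adjusted p = 0.0323 in edgeR's test. It was also the 1 gene of the list to pass the test over the 4 groups, with an adjusted p = 0.0327 in edgeR. By sign 58 of the 91 were higher and 33 lower in F0_Dep, where 45.4% of all genes were higher. Of all genes of 8000 bases or more, 84.7% were higher, and the part of transcript length in the wider list was not tested. Other histone demethylases were higher in 11 of 14, acetyltransferase complex genes in 8 of 12, deacetylases and corepressors in 13 of 20 and methyltransferases and Polycomb genes in 21 of 34, whereas other DNA methylation genes were higher in 5 of 11.

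In the F1 comparison 0 of the 91 passed edgeR's test, with 13 at an unadjusted p under 0.05, a share close to the 14.9% of all genes. Between F1_Dep and F0_Dep 4 of the 91 passed in edgeR, beside 2.88% of all genes. Of the 940 genes of 8000 bases or more, 76 were called lower and 1 higher, and the part of length in these calls was not tested. Nsd1, an H3K36 methyltransferase, fell by 0.59 on the log2 scale (adjusted p = 0.0350), the demethylase-family gene Jmjd1c fell by 0.49 (adjusted p = 0.0411) and Gatad2b, a NuRD subunit, fell by 0.44 (adjusted p = 0.0454). Gadd45a, a stress-induced gene linked to DNA demethylation, rose from a mean of 5.29 CPM in F0_Dep to 11.1 CPM in F1_Dep, a log2 fold change of 1.06 ± 0.25 (SE) with an adjusted p = 0.0455 in edgeR.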

How the data were processed

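The 44 genes, the wider list and the marker lists were chosen with earlier results of these data known. Libraries were made with a stranded mRNA kit, per the labels' protocols. HISAT2, Cufflinks 2.2.1 and mm10 are named without roles, per the submitters' processing notes. Expected counts for 35812 gene IDs in 12 libraries were deposited by the authors as 1 table, 27.2% of its values not being whole, and FPKM values deposited for 9 libraries were used. No source used here gives the counting tool or its use of strand, so reads of overlapping and antisense genes may be shared: 18 of the 44 genes share an exonic base with another gene, and Hdac4 alone shares more than 20%.

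Symbols were matched by gene ID, 58 IDs were added to an ID sharing their symbol, and 610 IDs without a symbol (0.579% of counts) were kept by ID. After rounding to whole numbers, these counts were fitted with edgeR 4.0.16 (R 4.3.3): TMM, filterByExpr, 1 quasi-likelihood fit over the 4 groups, Benjamini-Hochberg over 16153 genes, called under 0.05. SE is the fold change divided by the root of F. FPKM was tested with limma 3.58.1 on log2(FPKM + 1), for genes of at least 1 FPKM in 3 libraries. The count test was checked on counts simulated without a trend of transcript length. That check therefore cannot show how the test behaves under the length trend described above. Alternatives were DESeq2 1.42.0, other scalings and filters, omitted libraries, and, added after seeing the data, removal of transcript length and GC trends by splines with 4 degrees of freedom. Lengths and overlaps are from GENCODE M21 (GRCm38). All 44 genes are named with their level. Changes are given for those that passed, the 10 smallest p-values in the F0, F1 and 4-group tests and the 3 smallest elsewhere, and for others as values.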

Additional observations from a re-analysis of the deposited data

How the results depend on the processing

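Counts of the 44 genes called at 0.05 moved with the method. For F0_Dep against F0_Ctl the count of 3 became 5 with DESeq2 and with voom, 0 without TMM scaling, 0 with the compared groups alone, 11, 11 and 7 in the FPKM fits (pseudocount 1, pseudocount 0.1 and no filter), and 0 with the length trend or the length and GC trends removed. For F1_Dep against F1_Ctl the count of 0 became 3 with DESeq2, 7 with voom and 1 (Kat2b) without F0_Ctl 3, F1_Ctl 3 and F1_Dep 1 together. The interaction gave 2 with DESeq2 and 2 with voom. F1_Dep against F0_Ctl gave 1 with DESeq2 and 1 without those 3 libraries. For F1_Dep against F0_Dep the count of 1 became 7 with DESeq2, 2 with no filter, 17 with voom, 17 with the compared groups alone, 4 without those 3 libraries, 6 and 5 in FPKM with pseudocounts 1 and 0.1, and 0 with the length trend removed. The 4-group test gave 12 with DESeq2, 4 with no filter, 8 with voom and 3 without those 3 libraries. Leaving out 1 library gave 0 to 5 calls for F0_Dep against F0_Ctl, 0 to 3 for F1_Dep against F1_Ctl, 0 to 1 for the interaction, 0 to 0 for F1_Dep against F0_Dep, 0 to 4 between the controls and 0 to 15 over the 4 groups. The cause of these shifts was not tested, beyond fewer samples or genes where the alternative itself has them. The share of all genes called moved as well. For F1_Dep against F0_Dep it was 9.48% with DESeq2, 29.2% with voom, 24.2% with the compared groups alone and 2.84% with no filter on counts. For F0_Dep against F0_Ctl it was 7.91% with DESeq2, 2.64% with voom and 21.2% in FPKM with pseudocount 1. In the 4-group test it was 1.96% with no filter on counts. Where neither this section nor the results above give such a share, the count cannot be set against all genes. Of 575 values with a sign, for the 32 results with the smallest p-values, 0 changed sign, 43 lost and 47 gained a call. Over all 44 genes and 6 comparisons, 361 of 4828 values had another sign, in 103 of 264 results.

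With the replicate number as a block, 0 genes were called in F0_Dep against F0_Ctl, and no other count of the 6 changed. Same-numbered libraries were mostly not alike. Among 18 same-numbered pairs the correlation of deviations ran from -0.17 to 0.50, 2 were over 0.1, and 3 of 12 libraries matched their own number best. Whether a number marks a shared father, litter or day is not stated, and these correlations cannot show it.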
